A study of Mus musculus with 20 samples.

Results

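The data are single-cell transcript counts of CD45+ leukocytes from the mouse eye, and the cells described here are those the authors annotated jointly as monocytes, lymphocytes and granulocytes, as opposed to macrophages, microglia or dendritic cells. Members were the wells with that annotation in 2 places: 73 wells of ciliary body and 87 wells of laser-lesioned retina, together 160 of the 829 annotated wells of the whole series. The laser wells comprised 41 wells taken 7 days and 46 wells taken 3 days after the lesion. All mice were C57BL/6 aged 8 weeks. Ciliary body wells came from the muscle and epithelial ring behind the iris of eyes for which the labels name no laser treatment. Laser wells came from retinas after laser lesioning, which the labels abbreviate as CNV, commonly choroidal neovascularization. Cells stained for CD45 and CD11b were sorted on CD45 into 384-well plates, and sequenced by mCEL-Seq2, a 3' method with molecular identifiers, in libraries of 192 wells. About 6 mice were used over 3 experiments according to the submitters' design text, and no label ties a library to a mouse, so p-values measure the spread between these libraries, which may be technical.

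Each place had 4 libraries per group, in pairs that share a name prefix: P3 and P4 for ciliary body, P1 and P2 for each laser day. Prefix, tissue, laser lesioning and tissue preparation therefore move with the comparison and cannot be told apart. Wells were summed over each library pair, which gave 2 sums per group, and levels are given as CPM, a gene's share of all transcripts of the sum in parts per 1000000. The sums of ciliary body wells held 149714 and 160446 transcripts over 27 and 46 wells, those of laser day 7 held 102801 and 50967 over 26 and 15 wells, and those of laser day 3 held 83082 and 86713 over 18 and 28 wells. Median depth was 3348 transcripts per well in ciliary body, 2983 in laser day 7 and 3085 in laser day 3. Mitochondrial transcripts took a median of 7.82% per well in ciliary body, 11.8% in laser day 7 and 8.84% in laser day 3, and the library medians differed between ciliary body and laser retina (exact two-sided permutation test over 4 and 8 libraries, p = 0.0242), but not past 0.05 over library pairs (exact p = 0.267). A single ciliary body well of 28468 transcripts supplied 19.0% of its pair's sum, and the both-day comparison below called 164 genes with it and 164 without it, of which 119 higher and 30 lower genes were called in both.

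Monocytes are blood-borne phagocytes with classical and non-classical (patrolling) forms, neutrophils are short-lived granulocytes, and T cells and natural killer (NK) cells are lymphocytes that recognise peptide on MHC molecules or the lack of them. In an unlesioned eye few of these cells are found in the retina, whereas the ciliary body is vascular and holds a standing leukocyte population. After laser lesioning of the mouse retina, monocytes, neutrophils and later lymphocytes enter the tissue. The transcript programmes that recur below act within minutes to hours in any leukocyte: immediate early genes, transcription factors and phosphatases switched on by growth factor, stress and receptor signals without new protein synthesis, and NF-kB target genes, which include cytokines and the inhibitors that end the signal.

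The class held wells of several lineages, and in ciliary body the leading markers went against its label in part. Each well was thinned to 1000 transcripts and assigned to the lineage marker list that held most of its transcripts, with a minimum of 3. In ciliary body 26 of 73 wells (35.6%, Wilson 95% interval 25.6 to 47.1%) were led by the macrophage list, the type the class name leaves out, against 12 of 87 laser wells (13.8%). Counted per library, the ciliary body libraries held 58.3, 46.7, 45.5 and 8.33% macrophage-led wells, a mean of 39.7 ± 21.7% (SD, n = 4), whereas the laser libraries held 14.2 ± 7.76% (SD, n = 8). Ciliary body libraries 1 to 3 lay above every laser library and library 4 among them (exact permutation p = 0.0283, adjusted p = 0.140 over 8 categories).

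Wells led by non-classical monocyte markers made up 11.8 ± 9.55% of the ciliary body libraries (SD, n = 4) and 0.962 ± 2.72% of the laser libraries (SD, n = 8; exact permutation p = 0.0364, adjusted p = 0.140). That list includes Nr4a1, an immediate early gene that was itself higher in ciliary body (values below). How far Nr4a1 set these shares was not tested. Dendritic cell markers led 4.17 ± 4.81% of ciliary body wells and 19.8 ± 12.8% of laser wells (exact permutation p = 0.0525, adjusted p = 0.140). NK and innate lymphoid markers led 19.98 ± 10.1% of ciliary body wells and 11.3 ± 9.07% of laser wells (exact permutation p = 0.166). T cell markers led 13.7% of the ciliary body wells, 51.2% of the laser day 7 wells and 4.35% of the laser day 3 wells. Neutrophil markers led 1 of 73 ciliary body wells, 0 of 41 laser day 7 wells (Wilson upper bound 8.57%) and 8 of 46 laser day 3 wells. No category passed the adjusted threshold of 0.05. No well was led by the B cell or the mast cell list, and Cd79a, the B cell receptor chain, and Fcer1a, the mast cell and basophil IgE receptor, had 0 transcripts in every sum.

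**Figure D1:**
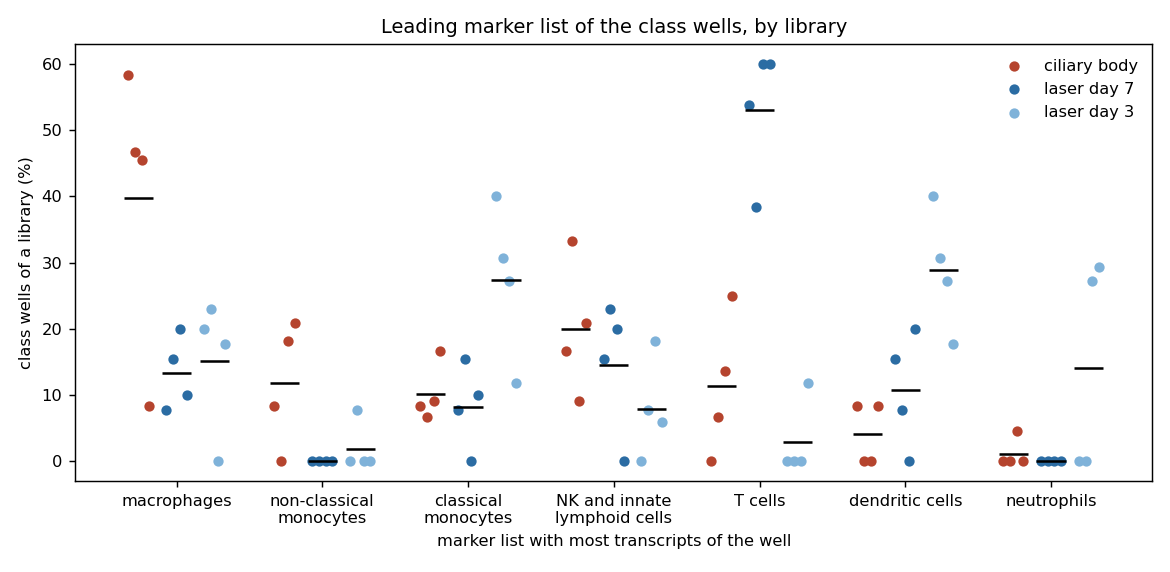
Percent of class wells in each library led by each lineage marker list, after thinning to 1000 transcripts per well; points are the 4 libraries of a group and black bars their means. Ciliary body libraries reach 58.3% for macrophage markers, and the laser day 7 mean is highest for T cell markers.

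The authors' own clusters show where the macrophage-led wells sat. Here and in all results below, wells were assigned by all their transcripts, without thinning, which gave 27 macrophage-led wells in ciliary body and 11 in laser retina. Of 14 ciliary body class wells in their cluster 5, 9 were macrophage-led, and the genes with the largest sums over other class wells included the stromal genes Dcn, Tagln, Col1a2 and Acta2, each found in only 2 or 3 of the 14 wells. Of 14 wells in cluster 17, 12 were macrophage-led, and the leading genes included Rgs5, Mgp, Plvap, Flt1 and Kdr, known from pericytes and endothelium and likewise found in only 2 or 3 of the 14 wells. In the thinned assignment, the share of macrophage-led wells was 25.5 percentage points higher in ciliary body than in laser libraries. Without clusters 5 and 17 of ciliary body it was 1.37 points higher (3 and 8 libraries). Those clusters held most macrophage-led wells of ciliary body, and no laser wells were left out. The smaller difference therefore follows from the wells chosen and is no test. The stromal marker list summed to 4475 CPM in ciliary body pair P3 and 212 in pair P4, against 84.3 to 346 in the laser sums. Macrophage markers summed to 16105 and 13560 CPM in the ciliary body pairs and 3182 to 5301 in the laser pairs. The single gene Apoe, which every ciliary body well held, made up most of this sum in both ciliary body pairs (values below). How far Apoe set the macrophage-led calls was not tested. Counts for the gene groups are given below without macrophage-led wells as well. This alternative and the one without clusters 5 and 17 were chosen after the data were seen.

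Between ciliary body and laser retina of both days, 164 of 2429 tested genes (6.75%) passed an adjusted p of 0.05 in edgeR's quasi-likelihood test, 132 higher (5.43%) and 32 lower (1.32%) in ciliary body. The median log2 ratio over all tested genes was -0.01. Against laser day 7 alone 187 genes passed (7.7%), 127 higher (5.23%) and 60 lower (2.47%), and against laser day 3 alone 64 passed (2.63%), 57 higher (2.35%) and 7 lower (0.288%). These contrasts share the ciliary body sums. Without laser day 7 pair P1 the day 7 count was 68 and without pair P2 it was 102. The day 3 count was 136 without ciliary body pair P4 and 100 without laser day 7 pair P2. Without the macrophage-led wells of all groups the counts were 103 for both days and 27 for laser day 3. Sums of ciliary body lay above every laser sum for 11.7% of tested genes and below every laser sum for 15.9%.

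Of the gene lists, that of immediate early genes had the most members higher in ciliary body. Of 20 listed genes 18 were tested and 16 rose, none fell, and the median log2 ratio was 3.75. Fos, a subunit of the AP-1 transcription factor, had 2342 and 1655 CPM in the ciliary body pairs, 107 and 58.9 in laser day 7 and 193 and 231 in laser day 3. Ciliary body values did not overlap those of laser retina, with a log2 ratio of 3.98 ± 0.29 (SE; edgeR adjusted p = 2.77e-05). Its partner Junb had 2758 and 3123 CPM in ciliary body, 185 and 157 in laser day 7 and 325 and 531 in laser day 3, a log2 ratio of 3.54 ± 0.23 (SE; edgeR adjusted p = 2.26e-05). Jun, another AP-1 subunit, rose by 2.97 ± 0.27 on the log2 scale. Dusp1, a phosphatase that switches off MAP kinases, had 810 and 1162 CPM in ciliary body, 38.9 and 39.2 in laser day 7 and 12.04 and 69.2 in laser day 3, and rose by 4.69 ± 0.43 on the log2 scale (SE; edgeR adjusted p = 0.000123).

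The stress-induced factor Atf3 rose by 3.96 ± 0.50 and the growth-response factor Egr1 by 4.12 ± 0.62 on the log2 scale. The orphan nuclear receptor Nr4a1, induced by antigen receptor and inflammatory signals, had 1201 and 1986 CPM in ciliary body, 9.73 and 196 in laser day 7 and 144 and 34.6 in laser day 3. Fosb had 361 and 287 CPM in ciliary body and only 3 transcripts in all laser wells together, a ratio of 34.8 (exact 95% counting interval 11.6 to 172). The listed genes that did not pass were Ier5, at 361 and 617 CPM in ciliary body against 137 to 369 in laser retina (adjusted p = 0.0598), and Klf6, at 435 and 636 against 216 to 311 (adjusted p = 0.0685). Against laser day 7 alone 17 of the 18 passed and against laser day 3 alone 13.

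**Figure D2:**
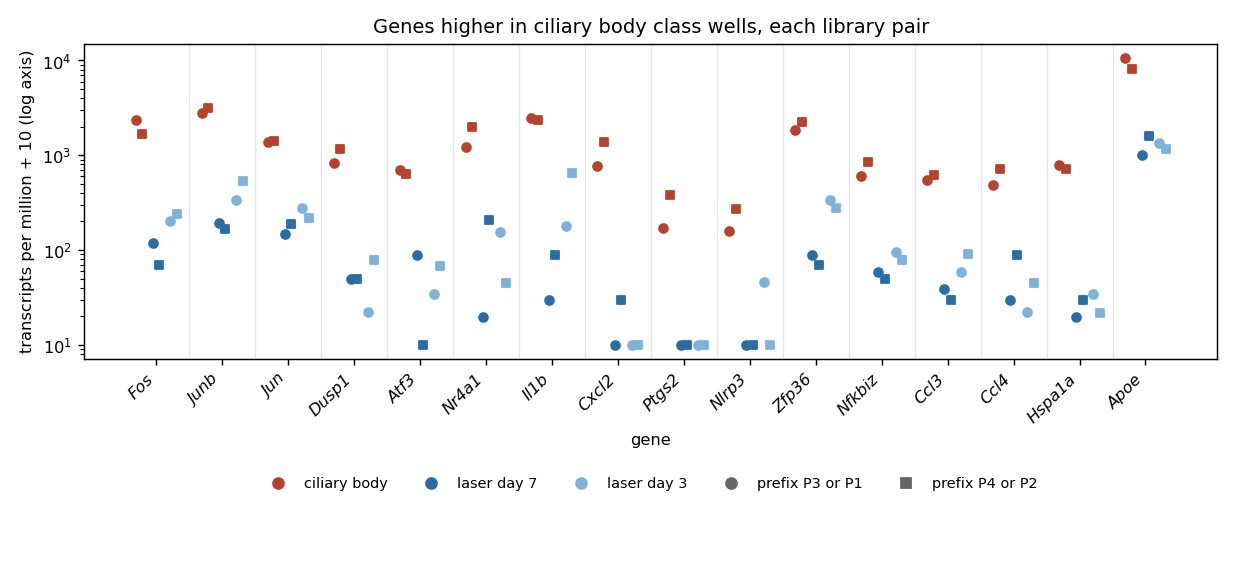
CPM plus 10, log axis, of 16 genes that were higher in ciliary body, for each library pair; circles are prefix P3 or P1 and squares P4 or P2. Both ciliary body points of each gene lie above all 4 laser points.

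In ciliary body every lineage that led a well had immediate early sums of 9999 CPM or more. Summed over the list, immediate early genes reached 15801 CPM in ciliary body wells led by T cell markers, 9999 in those led by NK and innate lymphoid markers, 16864 in those led by classical and 21040 in those led by non-classical monocyte markers. In laser wells the same sums ran between 1127 CPM, in NK-led wells of day 7, and 4792, in the 2 wells of day 3 led by non-classical monocyte markers without thinning. Nr4a1 is in both the immediate early and the non-classical list. It therefore helped choose the wells led by non-classical markers and is counted again in their sums. Per well, the list took a median of 1.38% of transcripts in ciliary body (0.134 to 5.17%), 0.117% in laser day 7 (0 to 0.878%) and 0.258% in laser day 3 (0 to 0.644%). With macrophage-led wells left out, 14 of 17 tested genes rose and the median log2 ratio was 3.13, and with clusters 5 and 17 left out 14 of 17 rose with a median of 3.29.

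The list was also high in other annotated cells of the same libraries. Ciliary body macrophages had 11674 and 19817 CPM of immediate early genes in pairs P3 and P4, beside 16900 and 19454 in the class wells of those pairs. Dendritic cells and microglia of the laser retina had 1343 to 2627 CPM, beside 1635 to 2746 in the laser class wells. The ciliary body sums of both classes lay above every laser sum, and Monos/Lymphos/Granulos was the only class summed in both places. Tissue, laser lesioning, preparation and prefix cannot be told apart here.

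**Figure D3:**
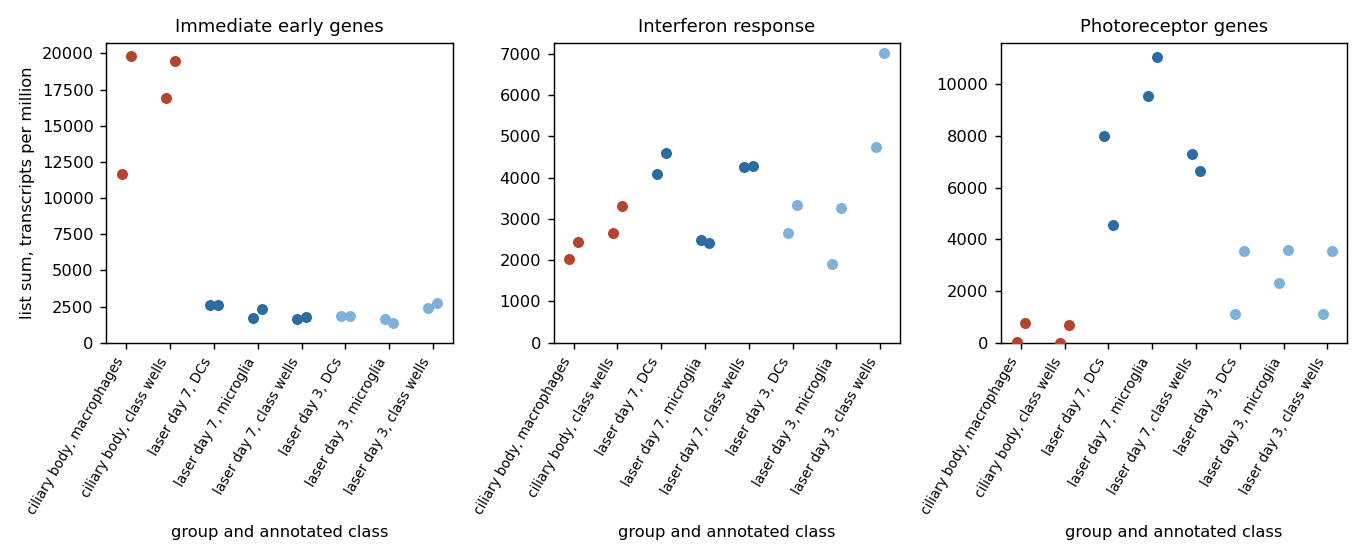
Summed CPM of the immediate early, interferon response and photoreceptor lists in each annotated class, with 1 point per library pair. Immediate early sums are 11674 or more in both ciliary body classes and 2746 or less in all laser classes, and photoreceptor sums are highest in laser day 7.

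Promoter windows of genes from the groups described here are shown to place known short motifs beside these values. Each has 300 bases, 250 before and 50 after the annotated start, from RefSeq on GRCm38.p6, and motifs were searched on both strands. In capitals, the window of Dusp1 (chr17:26508423-26508722, minus strand) holds 1 match of the cAMP response element TGACGTCA, which starts 143 bases before the start site. This motif is in 1.79% of all 32851 windows, in 3.37% of the windows of 1842 matched tested genes, in 8.65% of those of 104 matched genes higher in ciliary body, and in 3 of 17 matched listed immediate early genes (Btg2, Dusp1 and Ppp1r15a). Of 21 matched genes lower in ciliary body, 0 held this motif. A match describes letters and not binding.
Dusp1: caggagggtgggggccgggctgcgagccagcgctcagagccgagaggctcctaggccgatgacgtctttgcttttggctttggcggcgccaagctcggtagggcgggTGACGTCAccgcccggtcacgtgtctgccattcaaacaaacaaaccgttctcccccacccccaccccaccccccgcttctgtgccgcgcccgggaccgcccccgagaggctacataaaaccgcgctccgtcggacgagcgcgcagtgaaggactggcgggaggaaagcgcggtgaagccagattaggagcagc

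Inflammatory cytokines and NF-kB feedback genes rose in 11 of 14 tested of 19 listed, none fell, and their median log2 ratio was 3.22. Without macrophage-led wells 9 of 12 rose. Il1b, the fever-inducing cytokine of monocytes and macrophages, had 2443 and 2340 CPM in ciliary body, 19.5 and 78.5 in laser day 7 and 169 and 647 in laser day 3. The ranges did not overlap, with a log2 ratio of 4.32 ± 0.48 (SE; edgeR adjusted p = 0.00106), and 49 of 73 ciliary body wells held an Il1b transcript, against 6 of 41 laser day 7 and 17 of 46 laser day 3 wells. Cxcl2, a neutrophil-attracting chemokine, had 764 and 1357 CPM in ciliary body, 0 and 19.6 in laser day 7 and 0 in both laser day 3 pairs. That 1 laser transcript gives a ratio of 346 with an exact 95% counting interval of 61.7 to 13721 (edgeR adjusted p = 0.00012).

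Ptgs2, the inducible enzyme of prostaglandin synthesis, had 160 and 368 CPM in ciliary body and 0 in every laser sum, at least 28.9-fold higher in ciliary body with a floor of 3 transcripts over the laser wells. Nlrp3, the inflammasome sensor, had 147 and 262 CPM in ciliary body and 3 transcripts in all laser wells, a ratio of 22.3 (counting interval 7.28 to 111). The feedback genes, which limit the response, rose with the cytokines. Zfp36, which degrades cytokine mRNA, had 1851 and 2232 CPM in ciliary body, 77.8 and 58.9 in laser day 7 and 325 and 265 in laser day 3, a log2 ratio of 3.92 ± 0.26 (SE; edgeR adjusted p = 2.26e-05). Nfkbia, the inhibitor that holds NF-kB in the cytoplasm, rose by 2.79 ± 0.31, Nfkbiz by 3.68 ± 0.35, Tnfaip3 by 3.54 ± 0.38 and Tnf by 2.91 ± 0.42 on the log2 scale. Of 10 tested chemokines, Ccl3, Ccl4 and Cxcl2 rose, Ccl3 by 3.87 ± 0.38 and Ccl4 by 4.31 ± 0.48; Ccl3 and Ccl4 are close neighbours of similar sequence, and how shared reads were treated is not given. Ccl5, a chemokine of T and NK cells, had 1261 and 938 CPM in ciliary body and 689 to 4888 in laser retina, and did not pass (log2 ratio -0.82, adjusted p = 0.419).

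The window of Cxcl2 (chr5:90903649-90903948, plus strand) holds 2 matches of the kappa-B form searched (GGG and TTTCC with any 2 bases between), in capitals, starting 97 and 78 bases before the start site. This form is in 1.63% of all windows, 2.61% of the windows of tested genes, 8.65% of those of genes higher in ciliary body and 5 of 16 matched genes of the inflammatory list. Of 21 matched genes lower in ciliary body, 1 held it.
Cxcl2: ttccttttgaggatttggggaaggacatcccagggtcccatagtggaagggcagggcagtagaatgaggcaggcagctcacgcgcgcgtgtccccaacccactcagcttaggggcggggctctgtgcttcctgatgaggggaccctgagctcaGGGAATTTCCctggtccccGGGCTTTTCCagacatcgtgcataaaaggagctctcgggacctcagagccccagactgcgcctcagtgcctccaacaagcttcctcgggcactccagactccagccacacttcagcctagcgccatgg

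Of 7 tested heat shock genes of 11 listed, 4 rose and none fell, with a median log2 ratio of 1.31. Against laser day 7 alone 1 of 7 rose (Hspa1a) and against laser day 3 alone 2 (Hspa1a and Dnaja1). Without macrophage-led wells 1 of 7 rose, and in lymphoid-led wells 0 of 6 passed against laser day 7 (median log2 ratio 0.16). Hspa1a, the inducible HSP70 chaperone, had 772 and 699 CPM in ciliary body, 9.73 and 19.6 in laser day 7 and 24.1 and 11.5 in laser day 3. It was detected in 38 of 73 ciliary body wells, 2 of 41 laser day 7 wells and 3 of 46 laser day 3 wells, with a log2 ratio of 5.60 ± 0.43 (SE; edgeR adjusted p = 3.22e-05); its near-identical copy Hspa1b makes the split of reads between them uncertain. The constitutive chaperone Hspa8 had 1433 and 1148 CPM in ciliary body and 321 to 904 in laser retina, a rise of 1.401 ± 0.346 on the log2 scale. The co-chaperones Dnajb1 and Dnaja1 rose by 1.62 ± 0.40 and 1.31 ± 0.29.

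The window of Hspa1a (chr17:34972107-34972406, minus strand) holds 1 match of the heat shock form GAANNTTC, in capitals, starting 104 bases before the start site. This short form is in 7.86% of all windows, 8.52% of those of tested genes, 8.65% of those of genes higher in ciliary body and 7 of 8 matched listed heat shock genes. Of 21 matched genes lower in ciliary body, 5 held it (23.8%).
Hspa1a: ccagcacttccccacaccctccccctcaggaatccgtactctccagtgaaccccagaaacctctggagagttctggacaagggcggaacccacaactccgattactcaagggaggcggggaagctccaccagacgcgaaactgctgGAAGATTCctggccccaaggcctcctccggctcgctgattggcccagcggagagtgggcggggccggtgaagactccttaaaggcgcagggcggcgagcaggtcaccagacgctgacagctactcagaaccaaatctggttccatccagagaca

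Genes of phagocytes rose in part. Among 10 tested of 19 listed macrophage markers, Apoe, C1qa and Csf1r rose, none fell, and the median log2 ratio was 1.04. Apoe, the lipid carrier secreted by tissue macrophages, had 10534 and 8217 CPM in ciliary body, 994 and 1572 in laser day 7 and 1352 and 1146 in laser day 3, with a log2 ratio of 3.02 ± 0.21 (SE; edgeR adjusted p = 2.77e-05). All 73 ciliary body wells held Apoe, against 34 of 41 laser day 7 and 27 of 46 laser day 3 wells. In lymphoid-led ciliary body wells, in which Apoe is not known as a marker, it still had 4379 and 2562 CPM in pairs P3 and P4, against 470 and 1328 in laser day 7. C1qa, a complement component of resident macrophages, had 274 and 399 CPM in ciliary body, 19.5 and 19.6 in laser day 7 and 157 and 150 in laser day 3 (log2 ratio 2.69 ± 0.41 SE; edgeR adjusted p = 0.00268). With clusters 5 and 17 of ciliary body left out, the sign of C1qa turned to a log2 ratio of -2.03, and 1 of 10 tested macrophage markers passed. C1qa is on the macrophage list, and those clusters held most macrophage-led wells of ciliary body. These changes therefore cannot be told apart from the choice of wells.

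Of the monocyte markers, Chil3, a secreted lectin of classical monocytes, rose by 3.18 ± 0.62 and the matrix glycoprotein gene Thbs1 by 3.75 ± 0.77 on the log2 scale among 13 tested classical markers. Against laser day 3 alone none of the 13 passed, with a median log2 ratio of -0.37, and none of 7 tested non-classical markers. Without macrophage-led wells 2 of 13 classical and 2 of 8 non-classical markers rose against both days. Thbs1 overlapped between groups, with 1438 and 744 CPM in ciliary body and 0 to 962 in laser retina. Among 7 tested non-classical markers, Cd300ld rose by 2.63 ± 0.57, with 214 and 218 CPM in ciliary body and a highest laser value of 219, and Nr4a1 rose as given above. Ly6c2, the surface marker of classical monocytes that some T cells also carry, had 636 and 1118 CPM in ciliary body, 2734 and 2281 in laser day 7 and 434 and 2062 in laser day 3, and did not pass (adjusted p = 0.417). Ace and Treml4, marks of non-classical monocytes, were at 140 and 156 and at 66.8 and 162 CPM in ciliary body; Ace ranged between 0 and 181 in laser retina (adjusted p = 0.221), and Treml4, between 0 and 46.1, was too low to be tested. Of 9 tested matrix and wound genes 4 rose: Thbs1, Chil3, Plaur, the urokinase receptor, and Sdc4, a cell surface proteoglycan (log2 ratio 3.07 ± 0.75). Plaur had 220 and 337 CPM in ciliary body, 0 in both laser day 7 pairs and 24.1 and 57.7 in laser day 3. Other large rises were those of Id3, an inhibitor of helix-loop-helix factors, Hilpda, a lipid droplet gene induced by hypoxia, Kdm6b, a histone H3 lysine 27 demethylase, and Pim3, a kinase. Hilpda had 63 transcripts in ciliary body and 3 in laser retina, a ratio of 21.9 (counting interval 7.16 to 109), and Kdm6b had 461 and 917 CPM in ciliary body and 0 to 127 in laser retina.

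Some T cell genes fell in ciliary body. Of 15 tested of 30 listed T cell markers, 2 fell and none rose against both laser days (median log2 ratio -1.16), 9 fell against laser day 7 (median -2.48) and 1 fell against laser day 3 (median 0.10). Without macrophage-led wells 2 of 14 fell against both days. Cd8a, the co-receptor of cytotoxic T cells, had 6.68 and 0 CPM in ciliary body, 584 and 746 in laser day 7 and 36.1 and 80.8 in laser day 3. A single Cd8a transcript in ciliary body against 108 in laser retina gives a ratio of 0.00966 (exact 95% counting interval 0.000242 to 0.055; edgeR adjusted p = 0.00231). Cd8b1, the partner chain, fell by 4.01 ± 0.59 on the log2 scale (SE; edgeR adjusted p = 0.00234). Cd3d, part of the T cell receptor complex, had 13.4 and 49.9 CPM in ciliary body, 321 and 589 in laser day 7 and 0 and 57.7 in laser day 3. It fell against laser day 7 (log2 ratio -3.63, adjusted p = 0.0183) and did not pass against both days (adjusted p = 0.29). Between the laser days themselves 6 of 2429 genes passed, among them Cd8a (log2 3.47, edgeR adjusted p = 0.0301) and Thy1 (log2 3.26, edgeR adjusted p = 0.0307), both higher on day 7.

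Fewer T cells and less RNA of these genes per cell cannot be told apart in the sums, nor in the count of wells with a transcript. Of the wells, 1 of 73 ciliary body wells, 19 of 41 laser day 7 wells and 4 of 46 laser day 3 wells held a Cd8a transcript. T cell markers led 10 wells of ciliary body. None of 9 tested NK and innate lymphoid markers passed against both laser days (median log2 ratio 0.41). Gzma, a granzyme of cytotoxic cells, had 1100 and 387 CPM in ciliary body and 0 to 244 in laser retina (log2 ratio 2.753 ± 1.001 SE, edgeR adjusted p = 0.194), and Gzmb 455 and 131 against 0 to 860 (adjusted p = 0.855). Cell cycle genes fell in 2 of 8 tested of 20 listed, Top2a and Tubb5, in 4 of 8 against laser day 7 and in 0 of 8 against laser day 3. Top2a, a topoisomerase of dividing cells, had 6.68 and 6.23 CPM in ciliary body, 205 and 590 in laser day 7 and 36.1 and 34.6 in laser day 3, a ratio over all wells of 0.0366 (counting interval 0.00433 to 0.138). It was found in 2 of 73 ciliary body, 5 of 41 laser day 7 and 3 of 46 laser day 3 wells, so few wells carried its sums. With macrophage-led wells left out, 0 of 7 cell cycle genes passed.

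Dendritic cell genes fell in 3 of 12 tested of 22 listed against both laser days, and in 3 of 11 without macrophage-led wells. Against laser day 7 alone the 1 that fell was Klrd1, a lectin receptor shared with NK cells, and against laser day 3 alone it was Ccr9. Siglech, a surface lectin of plasmacytoid dendritic cells that microglia also carry, had 60.1 and 118 CPM in ciliary body, 292 and 788 in laser day 7 and 326 and 856 in laser day 3, and fell by 2.48 ± 0.58 on the log2 scale (SE; edgeR adjusted p = 0.0345). Ccr9, a homing receptor of plasmacytoid dendritic cells and T cells, had 6.68 and 49.9 CPM in ciliary body, 146 and 256 in laser day 7 and 205 and 532 in laser day 3, and fell by 3.04 ± 0.69. Bst2, or tetherin, which plasmacytoid dendritic cells carry at rest and other cells after interferon, fell by 1.53 ± 0.39 (edgeR adjusted p = 0.0409), with 127 and 181 CPM in ciliary body, 311 and 648 in laser day 7 and 446 and 577 in laser day 3. None of the 3 genes overlapped between ciliary body and laser retina. Wells with Siglech numbered 12 of 73 in ciliary body, 7 of 41 in laser day 7 and 8 of 46 in laser day 3, and its sums rested on those wells.

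Most interferon response genes had lower values in ciliary body, but few passed the test. Of 18 tested of 21 listed genes, 2 fell, among them Bst2, and none rose, 15 had a log2 ratio below 0, and the median was -1.05 against -0.01 over all genes. Against laser day 7 alone 2 fell and 1 rose, against laser day 3 alone none passed, and without macrophage-led wells 1 of 15 fell against both days. Isg15, a ubiquitin-like protein, had 66.8 and 125 CPM in ciliary body, 399 and 353 in laser day 7 and 169 and 381 in laser day 3 (log2 ratio -1.62, edgeR adjusted p = 0.0528). Summed over the list, class wells had 2651 and 3319 CPM in ciliary body, 4245 and 4280 in laser day 7 and 4748 and 7010 in laser day 3. The highest sums by lineage were those of the 8 neutrophil-led wells of day 3, at 19572, and of the 3 wells of day 7 led by classical monocyte markers without thinning, at 14104. Psmb8, an interferon-induced proteasome subunit, was the 1 of 10 tested MHC class I presentation genes that fell (log2 ratio -1.30 ± 0.30 SE, edgeR adjusted p = 0.028), and none rose.

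The window of Bst2 (chr8:71537423-71537722, minus strand) holds 2 matches of the interferon response form searched (GAAA repeated after any 2 bases), which overlap and start 130 and 124 bases before the start site; capitals mark the joined stretch. This form is in 3.44% of all windows, 5.27% of those of tested genes, 3 of 21 matched genes lower in ciliary body and 10 of 16 matched genes of the interferon list. Of 104 matched genes higher in ciliary body, 5 held it (4.81%).
Bst2: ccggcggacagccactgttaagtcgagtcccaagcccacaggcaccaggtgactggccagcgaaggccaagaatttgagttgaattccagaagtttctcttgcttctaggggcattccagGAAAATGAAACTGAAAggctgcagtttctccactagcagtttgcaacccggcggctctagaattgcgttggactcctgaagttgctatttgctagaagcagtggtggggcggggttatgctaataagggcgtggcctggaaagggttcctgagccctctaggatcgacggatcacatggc

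Photoreceptor transcripts, which leukocytes are not known to make, were in the class wells of the laser retina and much lower in ciliary body. The 18 listed genes summed to 6.68 and 667 CPM in ciliary body pairs P3 and P4, 7314 and 6657 in laser day 7 and 1120 and 3554 in laser day 3. Of 12 tested genes 6 fell and none rose against both days (median log2 ratio -3.62, or -3.49 with 1 gene at its bound), 11 fell against laser day 7 and 0 against laser day 3. Without macrophage-led wells 4 of 10 fell against both days. Prph2, a structural protein of outer segment discs, fell by 3.61 ± 0.75 (SE; edgeR adjusted p = 0.0173), with 0 and 37.4 CPM in ciliary body, 409 and 412 in laser day 7 and 96.3 and 254 in laser day 3. Reep6, a rod trafficking protein, and Nr2e3, a rod transcription factor, had 0 transcripts in ciliary body and were at least 13.4-fold and 9.59-fold lower there. Microglia of the same laser libraries had photoreceptor sums of 9561 and 11055 on day 7 and 2319 and 3576 on day 3, and the part of free RNA in these sums was not tested.

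**Figure D4:**
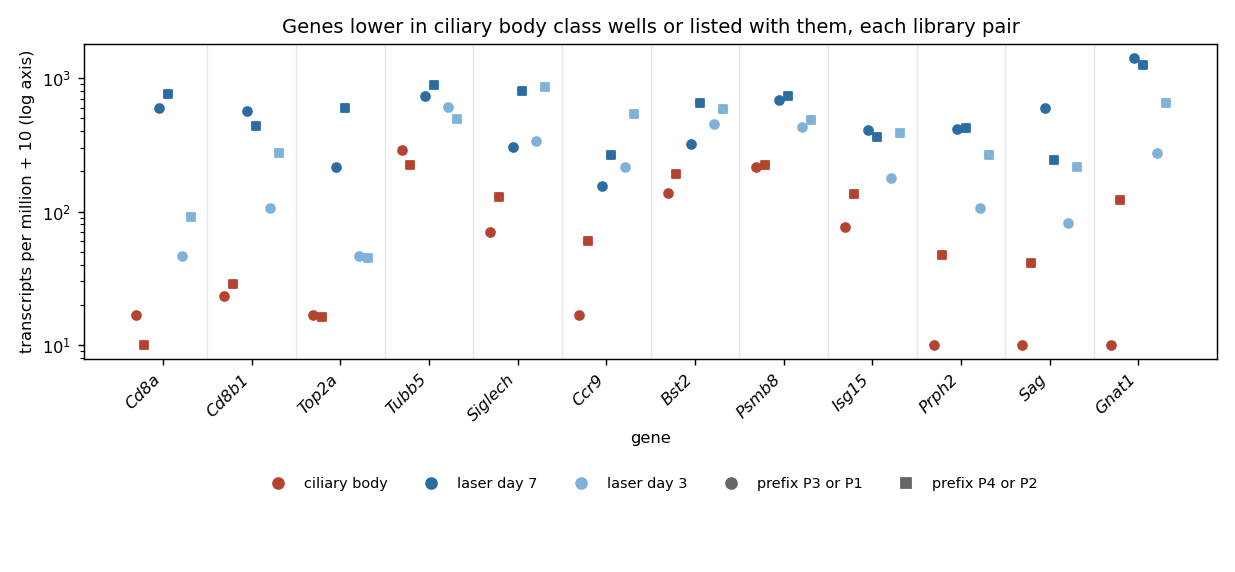
CPM plus 10, log axis, of 12 genes that were lower in ciliary body or belong to the same lists, for each library pair; circles are prefix P3 or P1 and squares P4 or P2. Isg15 and Gnat1 did not pass the test over both days (adjusted p = 0.0528 and 0.0508).

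Other large falls by the same measure were Mir124-2hg, the host gene of a neuronal microRNA, at least 9.9-fold lower with 0 transcripts in ciliary body, Pde6a and Rom1 of the rod outer segment, Cdh1, the epithelial cadherin, Fcrla, an Fc receptor-like gene known from B cells, and AA467197. Fcrla and AA467197 were among the leading genes of the authors' retina cluster 2, as were Siglech and Ccr9. Each of Fcrla and AA467197 was found in 7 of its 36 class wells. AA467197 had 6.68 and 0 CPM in ciliary body, 19.5 and 58.9 in laser day 7 and 386 and 369 in laser day 3, a ratio of 0.0151 over all wells (counting interval 0.000377 to 0.0871). Cdh1 had 0 and 6.23 CPM in ciliary body and 68.1 to 236 in laser retina. These genes were chosen among those whose ciliary body and laser values did not overlap.

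Several broad gene groups had no member that passed. None of 25 tested ribosomal protein genes (median log2 ratio -0.09), 22 oxidative phosphorylation genes (median -0.40), 16 actin and motility genes (median -0.14) and 14 S100, annexin and filament genes (median 0.10) was past the threshold. Oxidative phosphorylation sums, which were not tested, were still lower in ciliary body, at 4819 and 3940 CPM against 5888 to 7302 in laser retina. So were those of actin and motility, at 35183 and 36802 against 39957 to 50844. The ribosomal sums and the S100, annexin and filament sums overlapped. Among 8 tested MHC class II presentation genes none passed either, with a median of 1.31; H2-Aa had 10354 and 4250 CPM in ciliary body and 2127 to 6857 in laser retina (adjusted p = 0.222). Ptprc, which encodes CD45, the antigen of the sort, had 836 and 1079 CPM in ciliary body and 783 to 1130 in laser retina (log2 ratio 0.12 ± 0.24 SE, edgeR adjusted p = 0.834).

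**Figure D5:**
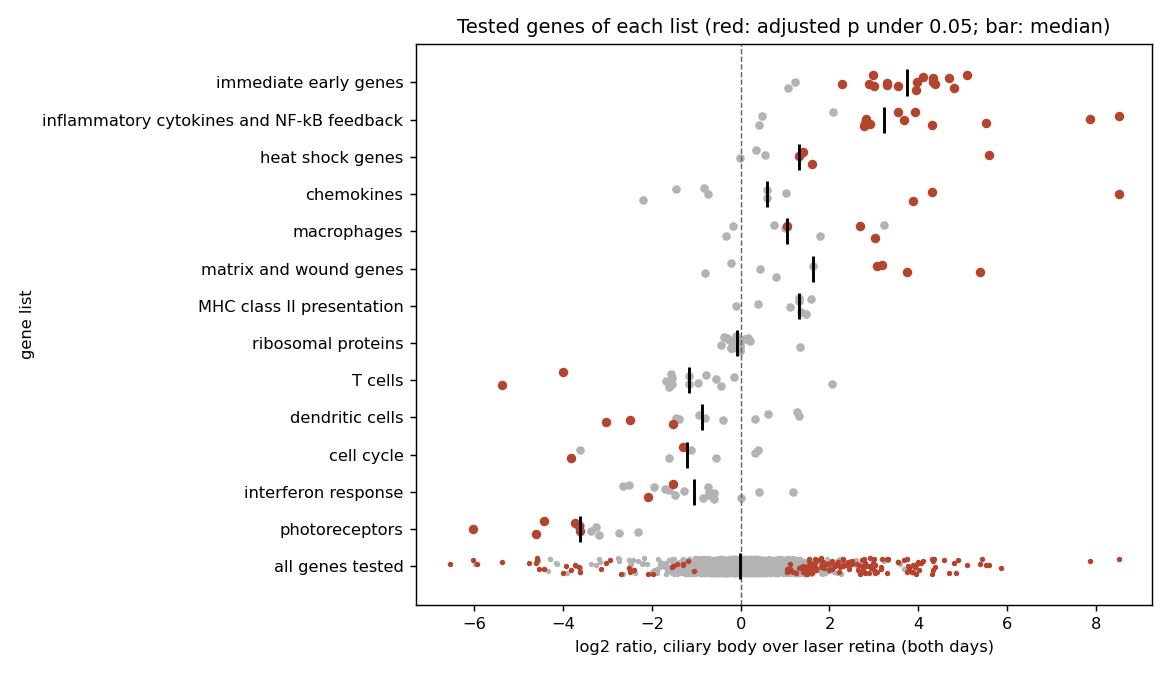
Log2 ratio of ciliary body over laser retina of both days for each tested gene of 13 lists and for all 2429 tested genes; red points passed an adjusted p of 0.05 and black bars are medians. The immediate early median is 3.75 and the photoreceptor median -3.62.

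Lymphocyte-like wells were compared apart from the mix of lineages. Wells led by the T cell or the NK and innate lymphoid list numbered 8 and 14 in the ciliary body pairs and 17 and 10 in the laser day 7 pairs, and laser day 3 had 1 pair with enough of them (6 wells). The lineages still differed, with 10 T-led and 12 NK-led wells in ciliary body and 21 T-led and 6 NK-led in laser day 7 (without thinning), so lineage markers are no result here. Of 1182 tested genes 125 passed against laser day 7 (10.6%), 76 higher (6.43%) and 49 lower (4.15%) in ciliary body. This count was 41 without laser day 7 pair P2, 52 without laser day 7 pair P1 and 67 without the laser day 3 sum, and DESeq2 called 25.

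Immediate early genes rose in 9 of 14 tested (median log2 ratio 3.36) and none fell. Junb had 2045 and 4227 CPM in ciliary body lymphoid wells and 104 and 108 in laser day 7, a log2 ratio of 4.82 ± 0.49 (SE; edgeR adjusted p = 1.56e-13), while the laser day 3 sum of these wells had 1243. Fos itself, at 47.5 and 422 CPM in ciliary body against 17.4 and 81.2 in laser day 7, overlapped and did not pass (adjusted p = 0.2). Nr4a2, another orphan nuclear receptor of this family, had 285 and 1351 CPM in ciliary body and 0 in both laser day 7 pairs, at least 30.0-fold higher, and Nr4a3 had 475 and 1521 against 34.8 and 0. Cdkn1a, the p21 inhibitor of cell cycle kinases, had 523 and 1267 against 0 and 0, at least 31.2-fold higher. Cxcr4, a receptor that holds leukocytes in tissue and marrow, had 238 and 1210 CPM in ciliary body and 0 and 27.1 in laser day 7, a ratio of 80.1 (counting interval 13.7 to 3230), while the laser day 3 sum, at 226, was close to the lower ciliary body value. In laser day 3, Nr4a2 and Cdkn1a had 0 transcripts and Nr4a3 had 1.

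Among the lower genes of lymphoid wells were 5 of 9 tested cell cycle genes, 5 of 9 tested interferon response genes and all 8 tested photoreceptor genes. Summed over the list, cell cycle genes had 997 CPM in T-led wells of ciliary body and 7858 in those of laser day 7. In NK-led wells the sums went the other way, at 4073 in ciliary body and 1002 in laser day 7. Rrm2, a subunit of ribonucleotide reductase, had 0 transcripts in ciliary body and 366 and 190 CPM in laser day 7, at least 5.59-fold lower, and Lig1, a DNA ligase of replication, at least 5.39-fold. Both also had 0 transcripts in the laser day 3 sum, and over all class wells Rrm2 was found in 1 of 73 ciliary body, 4 of 41 laser day 7 and 3 of 46 laser day 3 wells. Ifit1, an interferon-induced RNA binding protein, had 0 in both ciliary body pairs and 296 and 379 CPM in laser day 7, at least 6.19-fold lower, and 226 in laser day 3. Of 5 tested MHC class II genes 3 rose, among them H2-Aa with 4569 and 2619 CPM in ciliary body and 1166 and 813 in laser day 7, with 1243 in laser day 3 (day 7 log2 ratio 1.76 ± 0.38 SE, edgeR adjusted p = 0.000284). Il7r, the receptor of a lymphocyte survival cytokine, had 143 and 478 CPM in ciliary body, 52.2 and 54.2 in laser day 7 and 678 in laser day 3, above both ciliary body values; it is a member of the T cell list that chose the wells and is given as a value.

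Monocyte-like wells, led by the classical or non-classical list, numbered 4 and 16 in the ciliary body pairs and 9 and 4 in the laser day 3 pairs, with 1 laser day 7 pair of 3 wells in the same fit. The mix of subtypes still differed, with 11 classical-led and 9 non-classical-led wells in ciliary body and 11 and 2 in laser day 3 (without thinning). How far this mix set the differences below was not tested. Of 730 tested genes 26 passed against laser day 3 (3.56%), 22 higher (3.01%) and 4 lower (0.548%) in ciliary body. This count was 49 without ciliary body pair P3 and 47 without laser day 3 pair P2, while DESeq2 called 3. Cxcl2 had 942 and 1272 CPM in ciliary body and 0 in both laser day 3 pairs, at least 21.9-fold higher. Il1b had 5583 and 3030 against 240 and 1106, a log2 ratio of 2.69 ± 0.57 (SE; edgeR adjusted p = 0.0321). Cd14, the endotoxin co-receptor, had 2631 and 1650 against 90.1 and 276, and rose by 3.54 ± 0.50 (edgeR adjusted p = 0.00211); Tlr2, a receptor of bacterial lipoproteins, also rose.

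Immediate early genes rose in 5 of 15 tested in these monocyte wells (median log2 ratio 2.25) and none fell, among them Junb with 2083 and 2746 CPM in ciliary body and 240 and 645 in laser day 3 (and 924 in laser day 7; day 3 log2 ratio 2.49 ± 0.44 SE, edgeR adjusted p = 0.00969). Nr4a1, among the 5 that rose, is also in the non-classical list that chose the wells, so its rise is no result here. Fos had 1140 and 2016 against 210 and 737 and did not pass (adjusted p = 0.0936). All 4 genes that fell can be named. Ifi30, a lysosomal reductase of antigen processing, had 248 and 335 CPM in ciliary body and 1172 and 1660 in laser day 3 (log2 ratio -2.21 ± 0.41 SE, edgeR adjusted p = 0.00969). Tgfbi, a matrix protein induced by TGF-beta, had 595 and 773 against 2557 and 2586, and Tgm2, a transglutaminase of macrophages, 1190 and 773 against 2227 and 2865, while the laser day 7 sum had 347 for Tgm2 and 1503 for Tgfbi. Lars2, the mitochondrial leucyl-tRNA synthetase, had 545 and 204 against 1623 and 1199. None of 10 tested interferon response genes passed (median -0.94).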

How the data were processed

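Single cells sorted on CD45 were sequenced by mCEL-Seq2, and reads were aligned with BWA 0.6.2-r126, per the submitters' processing notes. The genome build, annotation and counting rule were not given in the sources used here. The deposited unnormalized tables hold the authors' estimated counts, derived from molecular identifiers and not normalized, with genes in rows and wells in columns. The deposited annotation gives each well a cell type and a cluster. The deposited library tables hold the same estimated counts with gene names and mitochondrial genes, and wells were matched to them by their values (0 wells had the same values as another); 280 genes absent from either table were left out, and 367 columns of other wells were not used. The second retina cell type call served as an alternative only.

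Counts of the annotated wells were summed per library pair (2 libraries of a group with the same name prefix), rounded to whole numbers, filtered with filterByExpr and normalized by TMM, and tested with the quasi-likelihood test of edgeR 4.0.16 in R 4.3.3 over 6 sums, with a term for each group and Benjamini-Hochberg adjustment over all tested genes. CPM values are parts per 1000000 of all transcripts of the sum. Tested on simulated counts of 2429 genes for ciliary body against both laser days, the fit recovered 8, 38, 47 and 50 of 50 changed genes at 2-, 4-, 8- and 16-fold, and called 10 of 2229 unchanged genes. Shares of wells were compared over libraries by exact two-sided permutation tests (SciPy 1.17.1). No doublets were removed here beyond the authors' choice of wells. Counting intervals cover counting error only. Alternatives used DESeq2 1.42.0, limma 3.58.1 with voom, other filters, thinned sums, equal weight per well, and pairs, libraries or kinds of wells left out.

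Members and gene lists were chosen with earlier results of these data known. Named genes were the 10 largest rises and falls per comparison among genes that passed, averaged at least 50 CPM in the higher group and did not overlap, up to 4 members per list, and a fixed list of markers; genes outside it, such as Ier5 and Klf6, were named after their values were seen. The planned contrast of lymphoid-led and monocyte-led wells over both days needed 2 sums per group, which only 1 laser day had, so each was tested against that day. Trbc2 and Lyz2 are not analysed here. Some genes that the rule names are not reported here.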

Additional observations from a re-analysis of the deposited data

Results flagged for a closer look

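Of 28 sets of 4 libraries examined for 1 library apart from the others, 4 had one. Chance flags about 1 in 20 such sets of continuous values. A share found in only 1 library is always flagged, so that rate does not hold for shares of wells. Neutrophil markers led 4.55% of the class wells of 1 ciliary body library and 0% of the other 3. The median number of genes per well was 2023 in 1 ciliary body library, and the next was 1751. T cell markers led 11.8% of the wells of 1 laser day 3 library and 0% of the others, and non-classical monocyte markers led 7.69% of the wells of another laser day 3 library and 0% of the others. Each of these shares rests on 1 or 2 wells.

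The contrast of ciliary body with laser retina differed between the laser days for 2 genes of the T cell list. Cd8a was higher on laser day 7 than on laser day 3 by 3.47 on the log2 scale (edgeR adjusted p = 0.0301), so that ciliary body was lower by a log2 ratio of -7.13 against day 7 and -3.65 against day 3. Thy1, a surface protein of T cells, was higher on laser day 7 than on day 3 by 3.26 (edgeR adjusted p = 0.0307), with a log2 ratio of ciliary body of -1.79 against day 7 and 1.48 against day 3. Both days' contrasts share the ciliary body sums.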

How the results depend on the processing

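For ciliary body against both laser days (164 genes), 94 genes passed in limma voom with the name prefix as a replicate block and 111 without the block; the laser days' deviations correlated by 0.09 within prefixes, which are 2 in number and carry no label of a shared mouse or day, so the samples share only a number. The count was 523 with no filter on low counts, 101 with wells weighted equally (70 higher, 31 lower) and 103 without macrophage-led wells, and 149 to 240 with 1 pair left out. Against laser day 7 (187) it was 454 with no filter and 68 to 255 with 1 pair left out. Against laser day 3 (64) it was 228 with no filter, 27 without macrophage-led wells and 51 to 136 with 1 pair left out. In lymphoid-led wells (125) it was 53 with at least 10 transcripts in 2 sums, 25 with DESeq2, 77 with no filter, 36 with sums thinned to the smallest and 41 to 134 with 1 pair left out; in monocyte-led wells (26) it was 3 with DESeq2, 2 with thinned sums and 22 to 49 with 1 pair left out. Mitochondrial percent was lower in ciliary body by -3.85 percentage points, by -2.18 over pairs (no longer past 0.05) and by -4.38 to -3.13 with 1 library left out, past 0.05 except without ciliary body library 3 (-3.50) or 4 (-3.58). Genes per well differed by 199, and by 127 to 284 with 1 library left out, of which 284, without laser day 3 library 2, passed. Among values that passed, before or after a change, 1 changed sign: C1qa, to -2.03 without clusters 5 and 17 of ciliary body, which held most of its macrophage-led wells. Of 2711 recomputed values of named genes 2269 kept their side of the threshold, 370 lost and 71 gained the call. Of the 2269, 22 values, of 12 log2 ratios that did not pass, changed sign, such as Cd3d (-2.82 to 0.69), Gzmb (-0.73 to 3.66) and S100a9 (-1.51 to 5.17) with 1 pair left out. The cause was not tested. Leaving mitochondrial genes out was not run apart, since the unnormalized tables hold none.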

Other observations

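Smaller gene groups held single members that differed. Over all tested genes 5.43% were called higher in ciliary body. The few calls in the short lists of this section are therefore given as values of those genes, and not as results about the lists. Of 6 tested tissue-resident lymphocyte genes 1 rose in ciliary body, Bhlhe40, a repressor of resident lymphocytes and macrophages, with 549 and 673 CPM in ciliary body, 58.4 and 98.1 in laser day 7 and 349 and 231 in laser day 3 (log2 ratio 2.17 ± 0.34 SE, edgeR adjusted p = 0.00354). Of 6 tested circulating lymphocyte genes 2 rose. Klf2, a factor that quiescent and circulating lymphocytes carry and that endothelium and macrophages also make, had 301 and 356 CPM in ciliary body and 38.9 to 104 in laser retina (log2 ratio 2.17 ± 0.39 SE, edgeR adjusted p = 0.00769). Cx3cr1, the fractalkine receptor of non-classical monocytes and NK cells, had 341 and 468 CPM in ciliary body and 98.1 to 265 in laser retina (log2 ratio 1.51 ± 0.34 SE, edgeR adjusted p = 0.0237). All 3 sets of ciliary body values lay above those of laser retina, as did those of 11.7% of all tested genes.

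Of 13 tested Fc receptor and complement genes 2 rose, C1qa and Fcgr2b, the inhibitory IgG receptor, which had 274 CPM in both ciliary body pairs and 58.9 to 231 in laser retina (log2 ratio 1.45 ± 0.37 SE, edgeR adjusted p = 0.0409). Of 11 tested glycolysis genes 1 rose, Slc16a3, a lactate exporter, with 120 and 212 CPM in ciliary body, 9.73 and 0 in laser day 7 and 108 and 115 in laser day 3 (log2 ratio 2.62 ± 0.58 SE, edgeR adjusted p = 0.0199). Its day 3 values lay just under those of ciliary body, and against laser day 3 alone it did not pass (adjusted p = 0.583). The median of the glycolysis list was -0.50.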
